A study of Mus musculus with 11 samples.

Results

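The S100 proteins are a vertebrate family of small calcium-binding proteins, and 9 genes of the family were found among the 7868 genes in the authors' table of AOM/DSS against naive mouse colon. The members were taken by symbol, as every listed gene whose name begins with S100 except S100b, and they are S100a6, S100a8, S100a9, S100a10, S100a11, S100a13, S100a14, S100a16 and S100g. Colon tissue came from 7 female wildtype mice given the carcinogen azoxymethane (AOM) followed by dextran sulfate sodium (DSS), a polymer that damages the colonic epithelium, and from 4 naive female wildtype mice that received neither agent. AOM was injected once intraperitoneally at 10 mg/kg, 3 cycles of 1.5% DSS in the drinking water followed from day 7, each with 5 days of DSS and 16 days of recovery, and the tissue was taken on day 70. The first line of the table calls the treated tissue AOM/DSS tumor and the naive tissue full-thickness colon. The paper likewise describes the treated samples as colonic tumors, so AOM/DSS colon below stands for this tumor tissue. Its description of the supplementary gene list for this comparison applies full-thickness to the tumors. The labels of these samples give no age. Transcripts were measured by 3′ mRNA sequencing of bulk tissue, in which fewer cells of a type and less RNA per cell cannot be told apart.

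S100 proteins carry a pair of EF-hand motifs, the helix-loop-helix fold that holds calcium, and most of them form dimers that bind target proteins once calcium rises in the cell. Several are also released and act on receptors of neighbouring cells as danger signals. In the intestine the family is best known for S100A8 and S100A9, which together make calprotectin, an abundant cytosolic protein of neutrophils that withholds zinc and manganese from microbes and is measured in stool as a marker of gut inflammation. Other members belong to the epithelium, the connective tissue or the muscle and act mainly inside the cell.

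The table holds 1 mean per gene and group on the authors' normalized scale and no values per mouse. The means therefore carry no error, the depth of the libraries is unknown, and no difference between the groups was tested here. A gene is in the table where its unadjusted p in the authors' comparison was 0.05 or less, so each of the 9 members met that limit, which is not an adjusted call, and a gene outside the table is not called unchanged. All ratios below are AOM/DSS over naive, computed from the authors' means. Since reads come from transcript ends, gene length has little part in a mean, and levels are set beside each other between genes on that scale alone.

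The summed level of the 9 members was nearly equal in the 2 groups, at 8219 in AOM/DSS colon and 8076 in naive colon, while the make-up of the sum differed. S100a8 and S100a9 together made 10.3% of it in AOM/DSS colon and 0.0319% in naive colon. S100a6 was the most abundant member in both groups and made 59.2% of the sum in AOM/DSS colon and 77.4% in naive colon. Without S100a6 the sum was 3353 in AOM/DSS and 1821 in naive colon, a ratio of 1.84. Without S100a8 and S100a9 it was 7371 in AOM/DSS and 8073 in naive colon, 1.10-fold lower in AOM/DSS. The full sums differed by 143, less than S100a8, S100a9, S100a11 or S100a14 differed alone, and the sum was lower in AOM/DSS colon when any 1 of these 4 genes was left out. How the authors' least-squares means were formed is not given in the sources used here, so the sums and shares are those of the printed means.

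**Figure D1:**
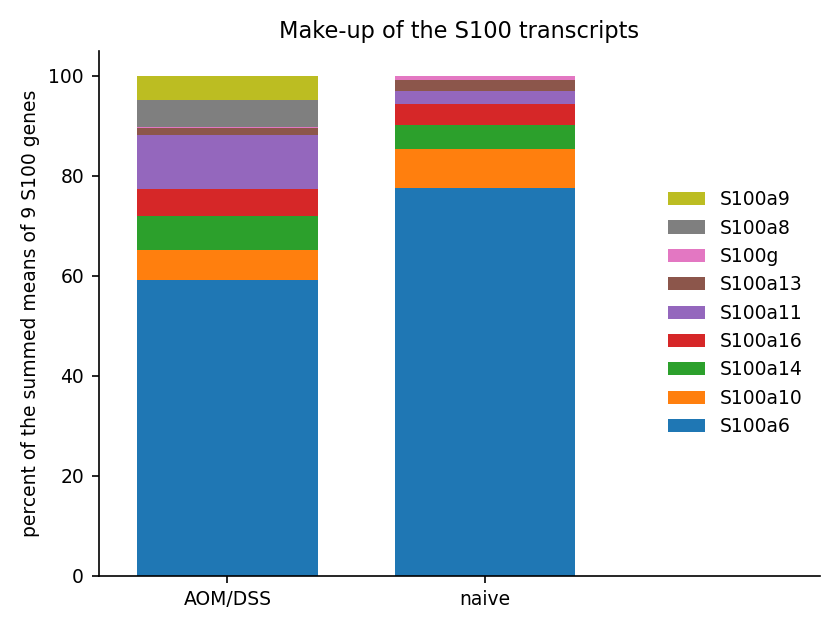
Share of each S100 member in the summed level of the 9 members, in percent, with a bar for AOM/DSS and a bar for naive colon, each computed from the authors' means. S100a6 takes 59.2% of the AOM/DSS bar and 77.4% of the naive bar, and S100a8 with S100a9 take 10.3% of the AOM/DSS bar and 0.0319% of the naive bar.

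Of the 9 members, 5 had the higher mean in AOM/DSS colon and 4 had the lower. Over the 7299 listed genes with both means above 0, 54.9% were higher and 45.1% were lower, so the split of the members was close to that of the table. At least 2-fold higher were 3 members, S100a8, S100a9 and S100a11, against 27.3% of those genes, and at least 2-fold lower was 1 member, S100g, against 17.4%. The median log2 ratio of the members was 0.46, beside 0.38 for all these genes. With so few members, chosen by being listed, these shares describe the table and nothing was read from them about the family. What set S100a8 and S100a9 apart from the other 7 was the size of their ratios, ranking 24 and 17 from the highest among the 7299 genes.

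**Figure D2:**
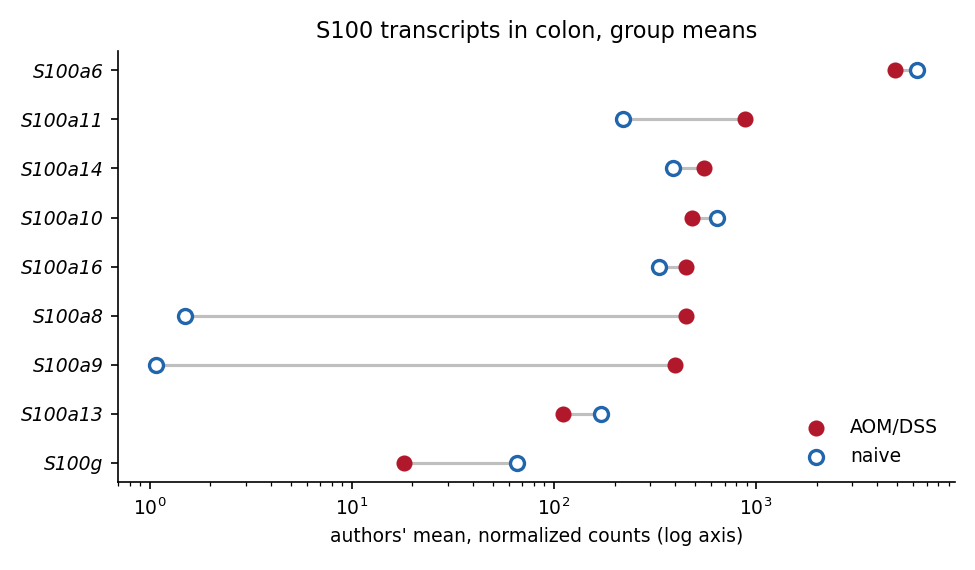
Authors' means of the 9 S100 members on a log axis of normalized counts, AOM/DSS colon as filled red and naive colon as open blue points, 1 point per gene and group joined by a line, with no error bars because the table gives none. S100a8 and S100a9 lie at 451 and 397 in AOM/DSS colon and at 1.50 and 1.08 in naive colon, whereas no other member differs by more than 4.01-fold between the groups.

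Calprotectin genes came first in size of difference. S100a8 encodes the smaller calprotectin subunit and lies on chromosome 3 of mm10 (chr3:90668978-90670035, forward strand). Its mean was 451 in AOM/DSS colon and 1.50 in naive colon, a ratio of 300.3 and a log2 ratio of 8.23. S100a9 encodes the other subunit, which carries the longer tail, and it lies downstream on the reverse strand (chr3:90692632-90695721). Its mean was 397 in AOM/DSS colon and 1.08 in naive colon, a ratio of 368 and a log2 ratio of 8.52. Both genes point towards each other, with 22596 bases between their ends. Neither was at 0 in naive colon, but both naive means were low, and their spread cannot be told without values per mouse.

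The transcripts of both subunits kept a similar proportion. S100a8 stood over S100a9 at a ratio of 1.14 in AOM/DSS colon and 1.39 in naive colon. By level S100a8 ranked 179 of the 7868 listed genes in AOM/DSS colon and 6032 in naive colon, and S100a9 ranked 211 in AOM/DSS and 6206 in naive colon. In AOM/DSS colon S100a8 was thereby at almost the level of S100a16, whose mean was 453, although S100a16 exceeded it by far in naive colon, where its mean was 330. Whether neighbouring members in this order differ beyond their spread cannot be told without values per mouse.

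The start regions of both genes are shown because they are the members whose transcripts differed most, from RefSeq on GRCm38.p6, the build of mm10, with 250 bases before the start and 50 after it. Capitals mark matches to the TATA box TATAAA and to the C/EBP motif TTGCNNAA, the site type of the myeloid factors C/EBP alpha, beta, delta and epsilon. S100a8 is read from the forward strand of chr3:90668821-90669120 and S100a9 from the reverse strand of chr3:90695672-90695971.
S100a8: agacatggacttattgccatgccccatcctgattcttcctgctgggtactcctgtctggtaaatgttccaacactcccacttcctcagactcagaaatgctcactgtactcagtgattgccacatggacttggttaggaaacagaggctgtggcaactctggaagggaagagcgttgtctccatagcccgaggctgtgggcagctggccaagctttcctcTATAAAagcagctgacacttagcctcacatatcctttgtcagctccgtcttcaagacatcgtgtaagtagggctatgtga
S100a9: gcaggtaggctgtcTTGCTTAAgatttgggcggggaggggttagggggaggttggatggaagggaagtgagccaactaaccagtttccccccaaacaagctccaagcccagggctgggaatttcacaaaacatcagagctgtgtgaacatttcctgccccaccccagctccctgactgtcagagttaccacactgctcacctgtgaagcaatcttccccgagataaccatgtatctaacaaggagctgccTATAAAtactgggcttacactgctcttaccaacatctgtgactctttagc

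In the S100a8 window the TATA box began 30 bases before the start. In the S100a9 window it began at the annotated start itself, and the match to the C/EBP motif began 236 bases before the start. Both strands were searched, and among 32851 RefSeq promoter windows of the same length 13.6% held the TATA box and 10.8% held the C/EBP motif. Neither window held the other motifs searched, which were the AP-1 motif TGANTCA (7.81% of windows), the STAT motif TTCNNNGAA (8.30%) and the NF-kB motif (4.79%). These matches describe letters and say nothing of whether a factor was bound.

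By their 2 group means on a log2 scale with 1 added, the genes nearest to S100a8 were Pla2g2a at a Euclidean distance of 0.315, S100a9 at 0.325, Saa3 at 0.664, Ighg1 at 0.767 and Clca4b at 1.07. Those nearest to S100a9 were Pla2g2a at 0.0100, S100a8 at 0.325, Saa3 at 0.364, Ighg1 at 0.644 and Krt13 at 0.870. Pla2g2a, a secreted antimicrobial phospholipase, had a mean of 398 in AOM/DSS colon and 1.09 in naive colon, almost the same pair of values as S100a9. Saa3, an acute-phase protein, had 315 in AOM/DSS and 0.874 in naive colon, and Ighg1, an immunoglobulin heavy chain of plasma cells, had 547 in AOM/DSS and 0.524 in naive colon. The likeness is over 2 means only, so any gene with the same pair of levels would rank as near.

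Genes of neutrophils, the cells richest in calprotectin, were also higher in AOM/DSS colon. Of 24 neutrophil genes in the list used, 19 were in the table, and their summed level was 540 in AOM/DSS and 21.9 in naive colon. All 16 with both means above 0 were higher in AOM/DSS colon, against 54.9% of all such listed genes. Ltf, the iron-binding lactoferrin of neutrophil granules, had 176 in AOM/DSS and 0.214 in naive colon. Lcn2, the siderophore-binding lipocalin that epithelium makes as well, had 113 in AOM/DSS and 1.50 in naive colon. Csf3r, the receptor for the neutrophil growth factor G-CSF, had 22.5 in AOM/DSS and 0.904 in naive colon. Cxcr1, Ngp and Stfa2 were listed at 0 in naive colon and so could only be higher, and Mmp8, Elane, Mpo, Camp and Ly6g were not listed. S100a8 stood over Csf3r at a ratio of 20.1 in AOM/DSS and 1.66 in naive colon, and over Lcn2 at 3.98 in AOM/DSS and 0.999 in naive colon. Its own ratio lay above those of Csf3r and Lcn2 and below that of Ltf, which was 824.

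Stratified squamous epithelium, which also makes S100A8 and S100A9 when it is inflamed or proliferating, was a further cell type whose markers were higher. Of 21 such genes 19 were listed, with a summed level of 2441 in AOM/DSS and 199.9 in naive colon. All 15 with both means above 0 were higher in AOM/DSS colon, against 54.9% of all such listed genes. The other 4, at 0 in naive colon, could only be higher. Sfn, which encodes the epithelial adaptor 14-3-3 sigma, made most of the naive sum, with 440 in AOM/DSS and 189 in naive colon, and the other 18 summed to 2002 in AOM/DSS and 10.8 in naive colon. Krt13, a keratin of moist squamous lining, had 440 in AOM/DSS and 0.148 in naive colon. Krt5 and Krt14, the keratin pair of basal squamous cells, had 233 and 215 in AOM/DSS and 0.266 and 2.21 in naive colon. Krt6a had 216 and Krt6b 112 in AOM/DSS colon, and Krt6a, Krt6b, Ivl and Sprr3 were listed at 0 in naive colon. S100a8 stood over Krt14 at 2.10 in AOM/DSS and 0.678 in naive colon, and over Krt5 at 1.94 in AOM/DSS and 5.64 in naive colon. Of 16 monocyte and macrophage genes 13 were listed, 12 of them higher in AOM/DSS colon and 1, Cd163, lower. The share higher over all listed genes with both means above 0 was 54.9%. The summed level of the 13 was 1970 in AOM/DSS and 806 in naive colon. T and B lymphocyte genes were 8 of 8 listed. All 7 with both means above 0 were higher, against the same 54.9%, and Cd8a, at 0 in naive colon, could only be higher. The summed level of the 8 was 144 in AOM/DSS and 8.97 in naive colon. The part of each of these cell types in the S100a8 and S100a9 difference was not tested.

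Among 14 genes of receptors and partners of S100A8 and S100A9, 12 were listed, 10 with the higher and 2 with the lower mean in AOM/DSS colon. Over all listed genes with both means above 0, 54.9% were higher. The median log2 ratio of the 12 was 1.29 beside 0.38 for all such genes. Calprotectin binds arachidonic acid and helps the phagocyte NADPH oxidase to assemble, and the oxidase subunits were higher: Cybb had 77.3 in AOM/DSS and 14.9 in naive colon, Cyba 176 in AOM/DSS and 68.2 in naive colon, and Ncf1 31.6 in AOM/DSS and 4.98 in naive colon. Of the receptor genes, Ager, which encodes the receptor RAGE, had 4.66 in AOM/DSS and 2.21 in naive colon, and Cd14, the co-receptor of Toll-like receptor signaling, had 105 in AOM/DSS and 43.3 in naive colon. Tlr4 and its partner Ly96 were not listed. The 2 lower genes were Bsg, which encodes the S100A9-binding surface protein basigin, at 224 in AOM/DSS and 306 in naive colon, and Cd36, a fatty acid receptor, at 4.22 in AOM/DSS and 14.6 in naive colon.

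Of 18 genes that encode known regulators of S100a8 and S100a9, 15 were listed. All 11 with both means above 0 were higher, against 54.9% of all such listed genes, and 7 were at least 2-fold higher, against 27.3%. The other 4, at 0 in naive colon, could only be higher. The median log2 ratio of the 11 was 1.80, beside 0.38 for all such genes. With 1 added to both means it was 0.98 over the 15, beside 0.36 for all listed genes. Il1b, an inducer of both genes, had 172 in AOM/DSS and 5.50 in naive colon. The myeloid transcription factor genes Cebpb and Spi1 had 58.0 and 53.6 in AOM/DSS and 16.6 and 13.9 in naive colon, and Stat3 had 348 in AOM/DSS and 201 in naive colon. Il6 had 2.95 in AOM/DSS and 0.409 in naive colon. Csf3, Ifng, Il17a and Il22 were listed at 0 in naive colon, at low levels of 0.161 to 1.83 in AOM/DSS colon, and Csf2, Cebpa and Cebpe were not listed.

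**Figure D3:**
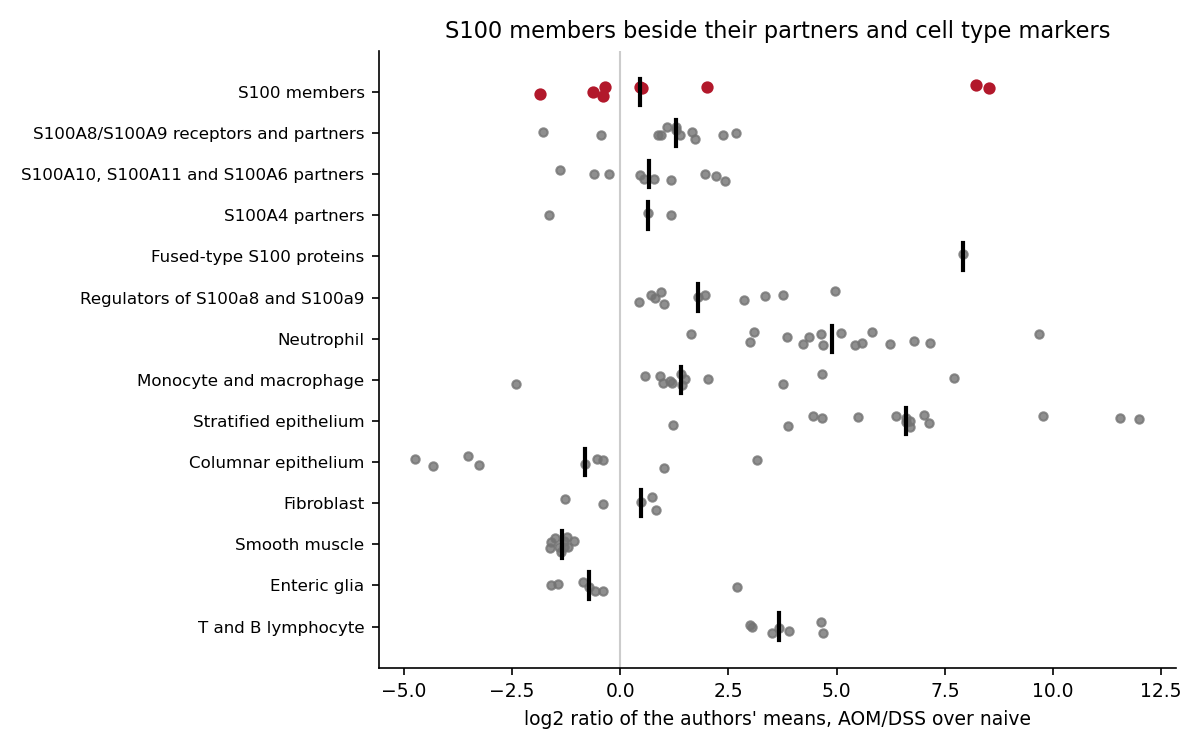
Log2 ratio of AOM/DSS over naive means for every listed gene of each partner, regulator and cell type list, 1 point per gene, with the median of the list drawn as a bar and a line at no difference. Genes listed at 0 in naive colon have no ratio and are not drawn. The 9 S100 members are in red in the top row. Beside the fused-type list, of which 1 gene is drawn, neutrophil and stratified epithelium genes have the highest medians, 4.89 and 6.61, and all 10 smooth muscle genes lie below 0 with a median of −1.34.

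S100a11 was another member, beside the calprotectin genes, with a ratio above 2 and next to S100a6 in abundance in AOM/DSS colon. It encodes calgizzarin, a partner of annexin A1 in membrane repair and in keratinocyte growth control (chr3:93520488-93526287, forward strand). Its mean was 881 in AOM/DSS colon and 220 in naive colon, a ratio of 4.01 and a log2 ratio of 2.00, and it made 10.7% of the summed S100 level in AOM/DSS and 2.72% in naive colon. S100a10 (chr3:93555080-93564643, forward strand) encodes p11, a member that no longer binds calcium and holds annexin A2 in a tetramer at the plasma membrane. Its mean was 486 in AOM/DSS colon and 640 in naive colon, 1.32-fold lower in AOM/DSS. The genes are neighbours on chromosome 3, yet their order reversed: S100a10 stood over S100a11 at 0.552 in AOM/DSS and 2.92 in naive colon.

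The window before S100a11 held the AP-1 motif TGANTCA in 2 places, 136 and 38 bases before the start, and is shown for that reason from the forward strand of chr3:93520246-93520545 (RefSeq, GRCm38.p6), with the matches in capitals.
S100a11: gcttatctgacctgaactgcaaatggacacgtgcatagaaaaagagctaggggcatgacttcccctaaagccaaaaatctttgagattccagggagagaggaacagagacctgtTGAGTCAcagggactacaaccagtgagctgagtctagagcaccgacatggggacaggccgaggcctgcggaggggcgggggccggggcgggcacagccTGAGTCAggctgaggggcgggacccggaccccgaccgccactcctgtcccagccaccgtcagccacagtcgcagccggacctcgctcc

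Among all RefSeq windows 7.81% held this motif at least once. Of the other members with a RefSeq window, S100a16 held the AP-1 motif 192 bases before 1 of its starts and the NF-kB motif 249 bases before another, and S100g held the C/EBP motif on the opposite strand 142 bases before its start and the TATA box at the start. The reads of S100a11 may be shared with copies of the gene: stretches of 40 bases in the last 400 bases of its transcripts also occurred in 5 processed pseudogenes, with 171 such stretches in Gm12854, 87 in Gm7665, 30 in Gm29240, 6 in S100a11-ps and 1 in Gm13640. Of these Gm12854 was listed itself, at 7.34 in AOM/DSS and 1.86 in naive colon, so the S100a11 value is uncertain to the extent that reads were split between copies. No other member shared such a stretch with another gene.

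The annexin partners did not follow their S100 partners in proportion. Anxa2, the partner of S100A10, had 1236 in AOM/DSS and 842 in naive colon, in the other direction from S100a10, so S100a10 stood over Anxa2 at 0.393 in AOM/DSS and 0.761 in naive colon. Anxa1, the partner of S100A11, had 327 in AOM/DSS and 146 in naive colon, and S100a11 stood over Anxa1 at 2.70 in AOM/DSS and 1.51 in naive colon. Ahnak and Ahnak2 encode giant scaffold proteins, the first of which the S100A10 and annexin A2 complex binds, and they had 694 and 51.1 in AOM/DSS and 1057 and 135 in naive colon. The complex also captures tissue plasminogen activator at the cell surface, whose gene Plat had 41.0 in AOM/DSS and 8.91 in naive colon, and Plaur, the urokinase receptor, had 28.2 in AOM/DSS and 5.24 in naive colon. Of the 14 genes in this partner list 10 were listed, 7 with the higher and 3 with the lower mean in AOM/DSS colon. Their median log2 ratio was 0.66. Over all listed genes with both means above 0, 54.9% were higher and the median was 0.38. Sugt1, Anxa11, Cacybp and Anxa5 were not listed. S100A6 also binds annexins A2 and A6, and Anxa6 had 195 in AOM/DSS and 142 in naive colon.

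S100a14 and S100a16, both known mainly from epithelial cells, had the smallest of the ratios above 1. S100a14 (chr3:90526856-90528837, forward strand) had 556 in AOM/DSS and 390 in naive colon, a ratio of 1.42, and S100a16 (chr3:90537254-90543151, forward strand) had 453 in AOM/DSS and 330 in naive colon, a ratio of 1.37. Their proportion was 1.23 in AOM/DSS and 1.18 in naive colon. Both remained higher when log2 ratios were centred on the median of all listed genes, by 0.13 for S100a14 and 0.08 for S100a16. Of 14 columnar epithelium genes 9 were listed, 2 higher and 7 lower in AOM/DSS colon. Over all listed genes with both means above 0, 45.1% were lower. The summed level of the 9 was 5654 in AOM/DSS and 10285 in naive colon. Muc2 and Lgr5 were the higher ones, at 1058 and 39.2 in AOM/DSS and 529 and 4.37 in naive colon. Car1, Car4, Slc26a3 and Aqp8 were at least 2-fold lower, 4 of the 9 against 17.4% of all such listed genes. Epcam, Cdh1, Krt18, Krt20 and Cldn7 were not listed.

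S100a6 (chr3:90612882-90624181, forward strand) encodes calcyclin, a protein of dividing cells, smooth muscle and epithelium. Its mean was 4867 in AOM/DSS colon and 6254 in naive colon, 1.29-fold lower in AOM/DSS, and it ranked 5 of all listed genes in AOM/DSS and 4 in naive colon. S100a6 stood over S100a8 at 10.8 in AOM/DSS colon and at 4164 in naive colon, and over S100a11 at 5.53 in AOM/DSS and 28.5 in naive colon. S100a13 (chr3:90514435-90524581, forward strand), which takes part in the non-classical release of fibroblast growth factor 1 and interleukin-1 alpha, had 111 in AOM/DSS and 172 in naive colon, 1.55-fold lower. S100g (chrX:162961992-162964599, reverse strand) encodes calbindin-D9k, the vitamin D-induced calcium carrier of the absorptive enterocyte, and is the only member on chromosome X. It had 18.1 in AOM/DSS and 65.9 in naive colon, 3.65-fold lower, which was the lowest ratio of the family. Of 10 fibroblast genes 5 were listed, 3 higher and 2 lower in AOM/DSS colon, at a median log2 ratio of 0.49. Over all listed genes with both means above 0, 54.9% were higher and the median was 0.38. All 10 smooth muscle genes of the list were at least 2-fold lower, against 17.4% of all listed genes with both means above 0. Their summed level was 6289 in AOM/DSS and 16209 in naive colon. The part of muscle and of absorptive epithelium in the lower levels of S100a6, S100a10, S100a13 and S100g was not tested.

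**Figure D4:**
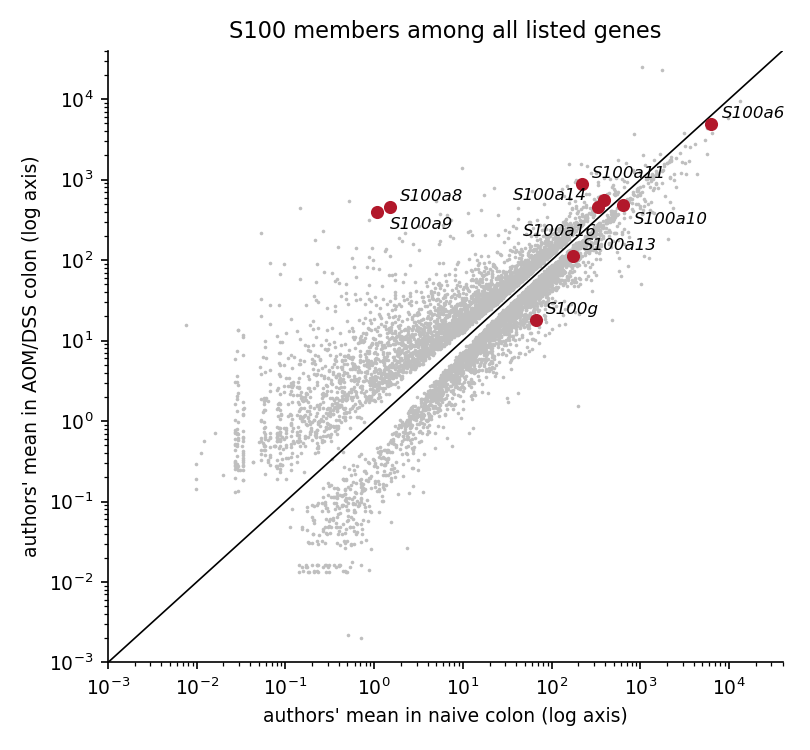
Authors' mean in AOM/DSS colon (vertical, log axis) against the mean in naive colon (horizontal, log axis) for the 7299 listed genes with both means above 0, with the 9 S100 members in red and a line where both means are equal. The band without genes along the line follows from the table holding genes under the p limit only. S100a8 and S100a9 lie at the far upper left of the cloud, and S100a6 lies near its upper right end, just under the line.

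Not every gene of the family was in the table. Of 19 genes in the GENCODE annotation whose names begin with S100, 10 were listed, the 9 members and S100b, and 9 were not: S100a1, S100a2, S100a3, S100a4, S100a5, S100a7a, S100z, the S100P-binding protein gene S100pbp and the pseudogene S100a11-ps. S100a4 encodes metastasin, a protein of fibroblasts, macrophages and invasive tumor cells, and no value can be given for it here. Of 5 genes for its partners 3 were listed: Myh9, the non-muscle myosin heavy chain that S100A4 disassembles, had 690 in AOM/DSS and 442 in naive colon, Trp53 had 14.4 in AOM/DSS and 6.43 in naive colon, and Myl9, abundant in smooth muscle, had 414 in AOM/DSS and 1299 in naive colon. S100b on chromosome 10, the glial member left out of the set, had 4.47 in AOM/DSS and 13.6 in naive colon, 3.04-fold lower.

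Of the members, 8 lie on chromosome 3, where the S100 genes flank the epidermal differentiation complex, a run of genes for the cornified envelope of squamous cells. In the order of protein-coding genes there, the stretch S100a1 to S100a9 held 13 genes, of which 6 were listed, all of them S100 genes, 4 with the higher and 2 with the lower mean in AOM/DSS colon. Between S100a9 and S100a11, over 2.82 megabases, lay 60 genes, of which 44 or 73.3% were listed, against 30.6% of the 21924 protein-coding genes annotated. All 44 had the higher mean in AOM/DSS colon, and 37 of them were listed at 0 in naive colon. A gene listed at 0 in naive colon can only be higher. Of the 7 with a naive mean above 0, 6 were at least 2-fold higher. In AOM/DSS colon levels of the 44 were low beside those of the S100 genes on either side, with a highest mean of 96.6 (Gm9774). In naive colon S100a8 at 1.50 and S100a9 at 1.08 were low as well, below Gm9774 at 64.0. The summed level of the 44 was 455 in AOM/DSS and 67.2 in naive colon. This stretch was looked at after its values were known.

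Of 21 Lce genes, which encode late cornified envelope proteins, 20 in this stretch were listed, all at 0 in naive colon, with a sum of 99.5 in AOM/DSS colon and a highest mean of 17.0 for Lce3a. Of 15 Sprr genes, which encode small proline-rich cross-linked proteins, 10 were listed, with a sum of 151 in AOM/DSS and 2.63 in naive colon. Sprr1a had 65.6 in AOM/DSS and 1.47 in naive colon, and Lor, which encodes loricrin, had 49.8 in AOM/DSS and 0.477 in naive colon. The fused-type S100 proteins, which join an S100 domain to long repeats and bundle keratin, are encoded in the same stretch. Of 7 of their genes 4 were listed. Rptn had 16.3 in AOM/DSS and 0.0670 in naive colon. Crnn at 1.37, Flg2 at 0.600 and Tchhl1 at 0.285 in AOM/DSS colon were listed at 0 in naive colon and so could only be higher. The 8 S100 members on this chromosome differed in direction, 5 higher and 3 lower. Of the listed genes lying between S100a9 and S100a11, 37 could only be higher, and the other 7 were higher as well. No contrast with the S100 members is drawn from that.

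**Figure D5:**
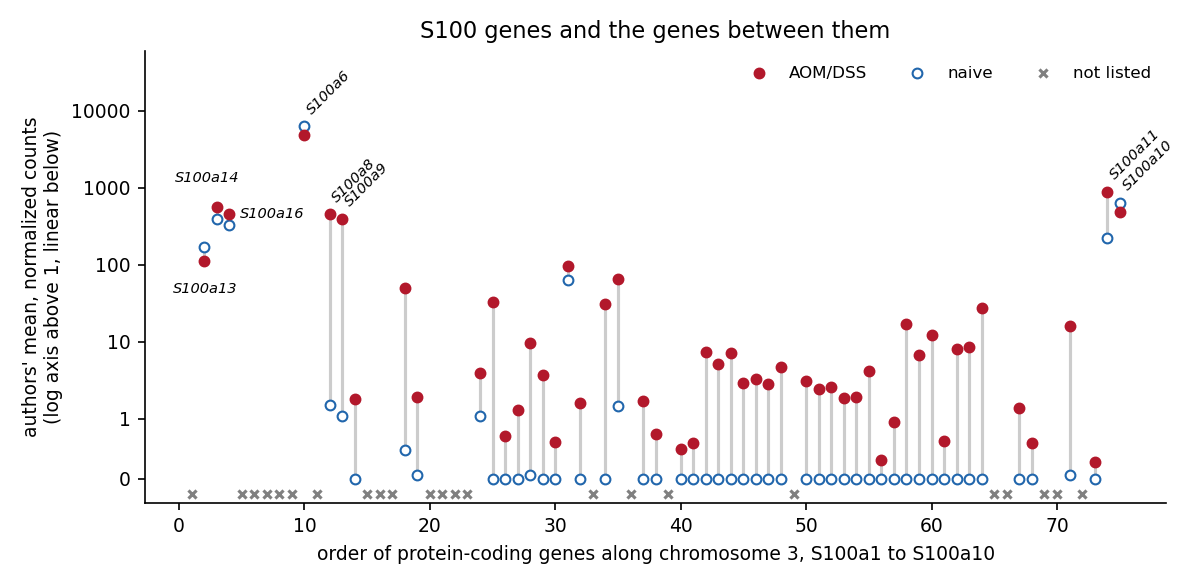
Authors' means of protein-coding genes in their order along chromosome 3 from S100a1 to S100a10, AOM/DSS in filled red and naive in open blue, joined by a line for each gene, on an axis that is logarithmic above 1 and linear below it, with crosses for genes that were not listed. The S100 genes at both ends mix both directions, at high levels except for S100a8 and S100a9 in naive colon. The 44 listed genes between S100a9 and S100a11 are all higher in AOM/DSS colon, with 37 naive points at 0, for which no other direction was possible.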

How the data were processed

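RNA of colonic tumor tissue from 7 AOM/DSS mice and of colon from 4 naive mice was made into QuantSeq 3′ mRNA libraries. After adapter and base trimming, the authors mapped the reads to mm10 with STAR, normalized the gene counts and compared the groups by gene-specific analysis in Partek Flow. Partek, STAR and cutadapt are the tools in the submitters' processing notes. The deposited table gives 2 means a gene, a signal on the authors' normalized scale. The normalization is not given in the sources used here and library depths are unknown, which allows no interval. Its other columns hold the authors' own fold changes, p-values and adjusted p-values. They were not used, except that the p column was read for the limit of the table, 0.05. Means under 0.0005, nearly all of them written 0.0001, were taken as 0 (500 genes in naive, 69 in AOM/DSS), and no ratio is given for such genes.

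Ratios, shares and ranks were computed from the means with Python 3.11.15, pandas 2.3.3 and numpy 2.4.6, without a test, and the scripts were tested on simulated data. Gene positions come from GENCODE M21 on GRCm38, in which 7727 listed names were found, and promoters from RefSeq, which held 8 windows for 7 members. Named genes were all members, all list genes a sentence needs and the 5 genes nearest to S100a8 and S100a9. The members and the gene lists were chosen with earlier results of these data known, and the lists come from textbook knowledge. Alternatives were a pseudocount of 1 or 0.1, centring on 2 medians, ratio limits of 1.5 and 4, and filters on low means.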

Additional observations from a re-analysis of the deposited data

How the results depend on the processing

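No paired analysis was possible because the table holds only group means and no values per mouse, and for the same reason no mouse could be left out in turn. Every member kept its direction under a pseudocount of 1 or 0.1 and under both centrings, and 3 members were at least 2-fold higher under every alternative run. With 1 added to both means the log2 ratio of S100a9 was 7.58 instead of 8.52 and that of S100a8 7.50 instead of 8.23. The count of members at least 2-fold lower was 1 as deposited, 2 when centred on the median of all listed genes, where S100a13 joins S100g, 2 at a ratio of 1.5 and 0 at a ratio of 4. The log2 ratio of the summed S100 level was 0.025 over all members, −0.13 without S100a8 and S100a9, which reverses it, and 0.88 without S100a6. It was also below 0 without S100a8 alone (−0.056), S100a9 (−0.046), S100a11 (−0.098) or S100a14 (−0.0042), and stayed above 0 without any 1 of the other 4 members. Leaving out single members, or Sfn from the stratified epithelium list, was chosen after seeing the data. Leaving out S100pbp changed nothing because it was not listed. Of 77 list medians recomputed, 67 stayed within the limit set for a move and 10 moved, with the neutrophil median at 3.02 instead of 4.89, the stratified epithelium median at 5.10 instead of 6.61 and the regulator median at 0.98 instead of 1.80 when 1 was added. Where both means had to reach 1, 5 instead of 16 neutrophil genes and 6 instead of 15 stratified epithelium genes were at least 2-fold higher, since genes with lower naive means leave the count. Centred on the median of all listed genes, 4 instead of 8 receptor and partner genes passed that ratio, and with no centring none of the 10 smooth muscle genes was 4-fold lower. What limits every value here is the lack of a spread: a ratio near 1, as for S100a16, S100a14, S100a6 and S100a10, cannot be set against the variation between mice from these means, and low means such as those of naive S100a8 and S100a9 set the size of the largest ratios.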
